A study of Mus musculus with 2 samples.

Results

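The liver steroid dehydrogenases and reductases described here are 10 genes, *Hsd3b2*, *Hsd3b3*, *Hsd3b5*, *Hsd3b7*, *Hsd11b1*, *Hsd17b2*, *Hsd17b6*, *Akr1c6*, *Akr1d1* and *Srd5a1*. They were picked by symbol, with their values known, from a table of 35275 genes, and all 10 reached a mean of 0.1 FPKM, as 16042 genes of the table did. FPKM counts fragments relative to the length of the gene and the size of the library. The table holds 2 libraries of liver RNA of male mice, each made from the RNA of 3 mice. S1a/ETP mice (Alb-Cre+/-;Rosa rtTA+/-;TRE-ETP+/-;S1a+/-) made endotrophin (ETP), a fragment cut from the carboxy terminus of COL6A3, in cells where albumin-Cre had removed the stop in front of the doxycycline-dependent activator rtTA. S1a/Ctrl mice (Alb-Cre+/-;Rosa rtTA+/-;S1a+/-) lacked the TRE-ETP transgene only. Both groups carried S1a, a truncated and constitutively active human SREBP1a driven by the rat PEPCK promoter, both ate doxycycline at 200 mg/kg of diet for 10 months, and both were 12 months old. The S1a/Ctrl group is therefore itself a fatty liver model that carries Cre, rtTA and the drug, and no library of a wild-type liver was analysed here. The paper describes lines of the cross as backcrossed to FVB and names no strain for the S1a line. With 1 pooled library per group there are no replicates, so no p-value is given, and in a pool the single mice cannot be told apart.

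Hydroxysteroid dehydrogenases move hydrogen between a steroid and a nicotinamide cofactor, and by turning a hydroxyl group into a ketone or back they switch hormones on or off. The liver is the main site where glucocorticoids, androgens and estrogens are reactivated, reduced and broken down, and it uses related enzymes to turn cholesterol into bile acids. In mice several of these liver enzymes differ between the sexes, because male and female patterns of growth hormone release act on hepatocytes differently. *Hsd3b5*, which encodes a reductase of 3-ketosteroids, is a long known male-biased gene of mouse liver.

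Among the 10 genes, the lowest ratio was that of *Hsd3b5*, which lies beside other *Hsd3b* genes on chromosome 3, so the sequence in front of their start sites is printed for a comparison of the genes. The 3 stretches are the 250 bases upstream of the RefSeq start in GRCm38.p6, all on the minus strand and written 5′ to 3′. They cover chr3:98645535-98645784 for *Hsd3b5*, chr3:98763129-98763378 for *Hsd3b3* and chr3:98724544-98724793 for *Hsd3b2*. Capitals mark the longest run shared by *Hsd3b5* and *Hsd3b3*, 24 bases. In the third line they mark a run of 8 bases that *Hsd3b2* shares with *Hsd3b5*. No run shared by that pair is longer, but it is not the only one of 8 bases.
Hsd3b5: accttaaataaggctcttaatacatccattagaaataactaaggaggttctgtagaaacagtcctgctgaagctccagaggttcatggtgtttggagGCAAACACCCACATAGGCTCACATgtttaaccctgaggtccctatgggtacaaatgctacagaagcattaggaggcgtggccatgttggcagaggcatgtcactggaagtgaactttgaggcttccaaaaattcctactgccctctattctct
Hsd3b3: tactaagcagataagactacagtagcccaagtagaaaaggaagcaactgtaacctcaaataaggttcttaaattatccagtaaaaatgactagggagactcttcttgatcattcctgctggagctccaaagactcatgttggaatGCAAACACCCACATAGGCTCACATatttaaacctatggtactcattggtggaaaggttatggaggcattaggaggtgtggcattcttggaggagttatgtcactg
Hsd3b2: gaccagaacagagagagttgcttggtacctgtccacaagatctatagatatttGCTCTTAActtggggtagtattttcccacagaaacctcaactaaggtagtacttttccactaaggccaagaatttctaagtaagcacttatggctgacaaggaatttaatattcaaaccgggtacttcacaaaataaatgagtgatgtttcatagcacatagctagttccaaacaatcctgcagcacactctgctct
A local alignment of the windows of 300 bases from RefSeq, which add 50 bases after the start, matched *Hsd3b5* and *Hsd3b3* at 188 of 247 aligned bases, or 76.1%, gaps not counted. *Hsd3b5* and *Hsd3b2* aligned over only 72 bases, at 83.3% identity. Of the 10 genes 9 have such a window, and the exception is *Hsd17b2*. *Hsd3b3* and *Hsd17b6* have 2 windows each, of which the one with the start farthest upstream was used.

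These windows were searched on both strands for 4 motifs of factors that act in liver, with positions given for the leftmost base of a match and counted from 1 at the start site. CAAAGTNCA, a direct repeat of the kind bound by HNF4, is in 1.41% of the 32851 windows of the RefSeq set. It was found on the strand opposite to the gene in the windows of *Hsd3b5*, at position −44, and of *Hsd3b3*, at position 5 after the start. TGTTTGC, a forkhead motif present in 5.07% of windows, was found in the same pair of genes, also on the opposite strand. There it forms the left end of the capital run, at −153 in *Hsd3b5* and −105 in *Hsd3b3*. The palindrome TTCNNNGAA, bound by STAT factors and present in 8.30% of windows, was found in *Hsd3b7* at −21. AGAACA, only a part of a glucocorticoid receptor site and present in 19.0% of windows, was found in *Hsd3b2* at −246. None of these motifs overlapped another in these genes. A match describes the letters only, the reference is C57BL/6J and lines of the cross were backcrossed to FVB. The RefSeq start of *Hsd3b5* also lies 15.2 kb upstream of the end of the gene model in the deposited table, and those of *Hsd3b7*, *Hsd11b1* and *Hsd17b6* lie 15.0, 21.7 and 6.93 kb from theirs, so the reads were counted on models other than RefSeq's.

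Each ratio is the log2 of S1a/ETP over S1a/Ctrl after 0.1 FPKM was added to both values, so a negative ratio means lower in S1a/ETP. Square brackets hold its 95% interval, an exact binomial one (Clopper-Pearson) from the reads of the gene, and this covers counting error but not the spread between mice. The FPKM values corresponded to whole reads within 0.01, at a depth of 14538808 reads for S1a/ETP and 19245078 for S1a/Ctrl.

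Among the 10 genes, 2 were lower by 2-fold or more in S1a/ETP and 0 were higher by that size, where 6.25% of all 16042 genes were that much lower and 6.42% that much higher. The interval lay below 0 for 9 of the 10 and above 0 for none of them, spanning 0 for *Srd5a1*, where it lay below 0 for 17.5% of all genes and above 0 for 22.4%. The ratio itself was below 0 for 9 of the 10 and for 46.8% of all genes. The median ratio was −0.44 over the 10 genes and 0.03 over all genes. All 10 have means over 5 FPKM. Of the 6355 genes at or over that level, 1.18% were lower and 0.881% higher by 2-fold or more, 25.7% had an interval below 0 and 29.7% above 0, 46.8% had a ratio below 0, and the median was 0.02. The 10 genes were chosen from this same contrast, so the counts describe them and support nothing further. In liver RNA, fewer hepatocytes and less RNA per hepatocyte cannot be told apart, and with the median of 13 hepatocyte markers set to 0, which adds 0.20 to every ratio, the median of the 10 was −0.24.

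**Figure D1:**
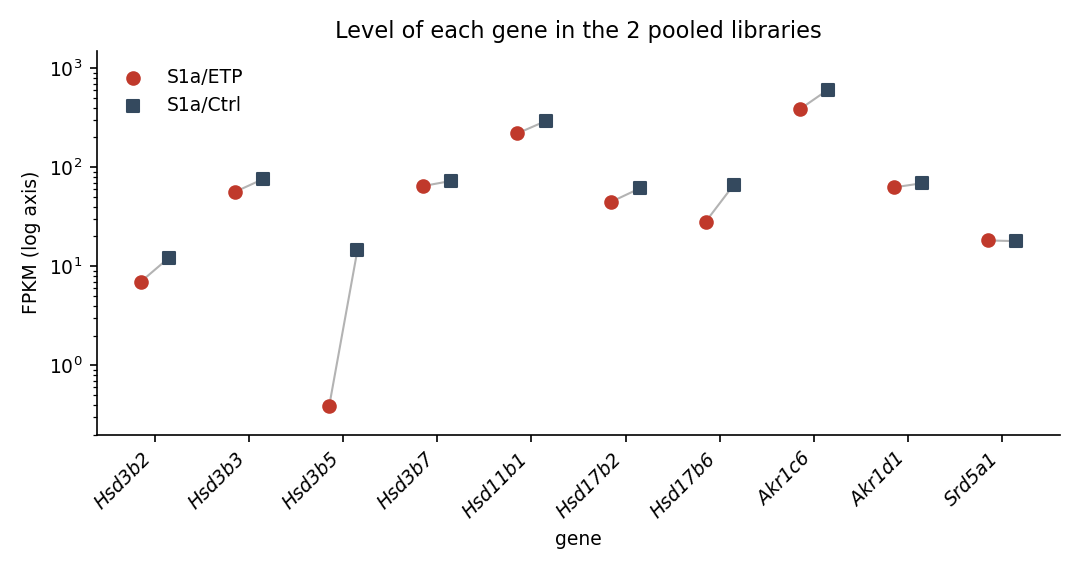
Level of each of the 10 genes in FPKM on a log axis, with S1a/ETP as circles and S1a/Ctrl as squares, 1 pooled library each, joined by a line. Levels ran from 0.386 FPKM for *Hsd3b5* to 384 FPKM for *Akr1c6* in S1a/ETP, and from 12.3 FPKM for *Hsd3b2* to 604.6 FPKM for *Akr1c6* in S1a/Ctrl.

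**Figure D2:**
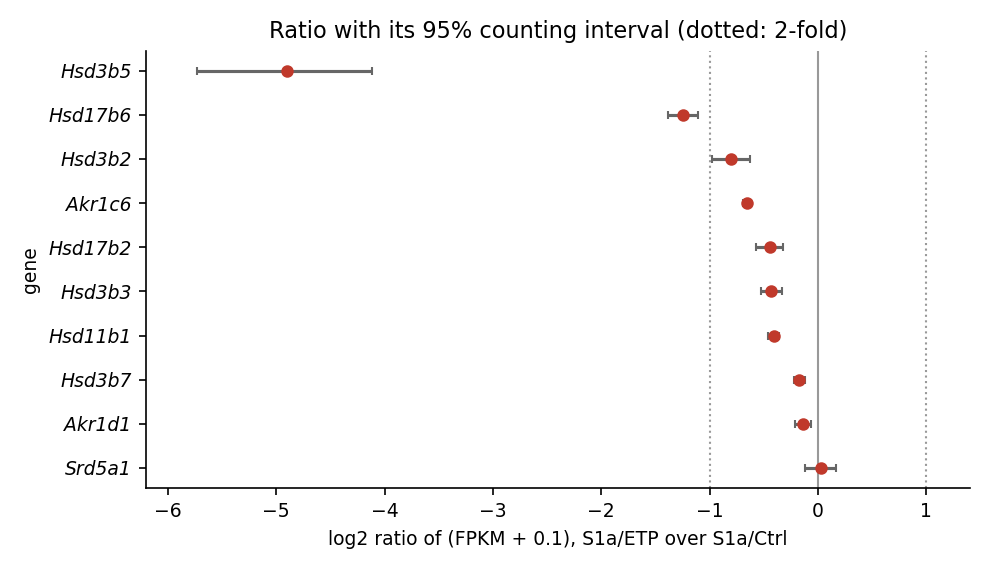
Log2 ratio of each gene, S1a/ETP over S1a/Ctrl, with its 95% counting interval as the bar and 2-fold as dotted lines. *Hsd3b5* lies at −4.90 and *Hsd17b6* at −1.24, and the other 8 genes lie between −0.80 and 0.02.

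*Hsd3b5* had by far the lowest ratio of the 10. It stood at 0.386 FPKM, or 9 reads, in S1a/ETP and at 14.4 FPKM, or 446 reads, in S1a/Ctrl. The S1a/ETP level was 2.67% of the S1a/Ctrl level, a difference of 37.4-fold before the pseudocount and a log2 ratio of −4.90 [−5.73, −4.11] with it. Ranked by ratio, it was number 17 from the lowest among 11006 genes whose mean FPKM was 1 or more, a rank that depends on the pseudocount, since genes with 0 reads in S1a/ETP stand near it. The ratio moved between −5.19 and −3.48 over 7 other pseudocounts and scalings, and each of them left the gene far past 2-fold lower. The value rests on few reads in S1a/ETP, since 3 reads would correspond to 0.129 FPKM there. The gene model of the table (ENSMUSG00000038092) runs from 98618636 to 98630309 on chromosome 3, minus strand.

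The neighboring *Hsd3b* genes did not share a difference of that size. *Hsd3b2* and *Hsd3b3* encode dehydrogenase/isomerases of the type that turns 3-hydroxy-5-ene steroids into 4-ene-3-ketones. *Hsd3b2* was at 6.999 FPKM (376 reads) in S1a/ETP and 12.3 FPKM (872 reads) in S1a/Ctrl, a log2 ratio of −0.80 [−0.98, −0.63]. *Hsd3b3*, the most abundant of the cluster, was at 56.4 FPKM (1321 reads) in S1a/ETP and 76.1 FPKM (2358 reads) in S1a/Ctrl, a log2 ratio of −0.43 [−0.53, −0.33]. Their intervals do not overlap that of *Hsd3b5*, nor each other's. *Hsd3b1*, *Hsd3b4* and *Hsd3b6*, which lie in the same stretch, had 0 reads in both libraries, where 3 reads would correspond to at most 0.138 FPKM in S1a/ETP and 0.104 FPKM in S1a/Ctrl.

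The make-up of the cluster therefore differed between the libraries. *Hsd3b5* gave 0.605% of the summed FPKM of the 6 genes in S1a/ETP and 14.1% in S1a/Ctrl. *Hsd3b3* gave 88.4% in S1a/ETP and 74.0% in S1a/Ctrl, and *Hsd3b2* gave 11.0% and 11.9% of the S1a/ETP and S1a/Ctrl sums. *Hsd3b3* was thus at 146 times the FPKM of *Hsd3b5* in S1a/ETP and at 5.27 times in S1a/Ctrl. The whole cluster summed to 63.8 FPKM in S1a/ETP and 102.8 FPKM in S1a/Ctrl, a log2 ratio of −0.69, and to 63.4 FPKM and 88.4 FPKM, a ratio of −0.48, without *Hsd3b5*. With *Hsd3b7*, which lies on chromosome 7, the 7 *Hsd3b* genes summed to 128.5 FPKM in S1a/ETP and 175.7 FPKM in S1a/Ctrl, a log2 ratio of −0.45.

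**Figure D3:**
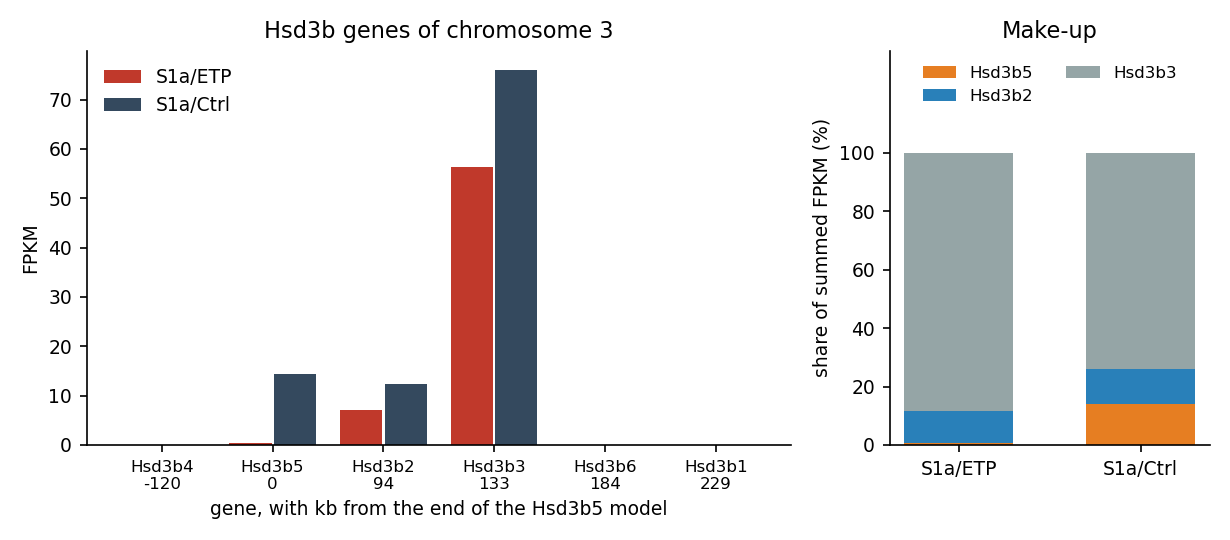
Left, FPKM of the 6 *Hsd3b* genes of chromosome 3 in S1a/ETP and S1a/Ctrl, in their order along the chromosome, with the distance in kb from the end of the *Hsd3b5* model under each name. Right, the share of the summed FPKM that each gene with reads gave, where *Hsd3b5* takes 0.605% in S1a/ETP and 14.1% in S1a/Ctrl.

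Reads of near-identical copies can be split or lost, so single *Hsd3b* values are uncertain. Of the windows of 50 bases along GENCODE M21 transcripts, 21.2% of those of *Hsd3b5* also occur in another gene and 18.2% occur in the predicted gene *Gm10681*, which had 0 reads in both libraries. The figure was 25.1% for *Hsd3b2*, with 11.0% shared with *Hsd3b3*, and 6.69% for *Hsd3b3*. *Hsd3b4* shares 100% of its windows with *Gm10681*, so its 0 reads do not show that it is silent. The same gene models were used for both libraries.

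The 3 genes nearest to *Hsd3b5* in ratio, among those with a mean FPKM of 1 or more, were *Igkj3*, an immunoglobulin joining segment with 0 reads in S1a/ETP and 2 in S1a/Ctrl, and *Ckmt2* and *Myh4*, a creatine kinase and a myosin of skeletal muscle. *Ckmt2* had 0 reads in S1a/ETP and 84 in S1a/Ctrl, and *Myh4* had 0 and 353. With 0 reads in S1a/ETP, the ratios of these 3 genes are set by the pseudocount, so their nearness to *Hsd3b5* is arbitrary. *Myh4* was at −2.02 and *Hsd3b5* at −3.48 with a pseudocount of 1 FPKM, and at −8.26 and −5.19 with 0.01 FPKM. The muscle genes belong to a wider difference between the pools. Of 13 skeletal muscle markers 12 were measured and all 12 were lower by 2-fold or more in S1a/ETP, 9 of them at 0 there, and the list summed to 0.539 FPKM in S1a/ETP and 105.7 FPKM in S1a/Ctrl. The part of muscle RNA in the ratio of *Hsd3b5* was not tested.

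The RNA levels of *Hsd11b1* and of *H6pd*, a gene for its cofactor supply, differed in opposite directions. *Hsd11b1* encodes the enzyme of the endoplasmic reticulum that regenerates active glucocorticoid from its inert ketone form, which in mice turns dehydrocorticosterone into corticosterone. It was at 219.6 FPKM (5054 reads) in S1a/ETP and 292 FPKM (8895 reads) in S1a/Ctrl, a log2 ratio of −0.41 [−0.46, −0.36]. *H6pd*, whose product makes the NADPH that drives this reduction, was at 79.1 FPKM in S1a/ETP and 64.5 FPKM in S1a/Ctrl, a log2 ratio of 0.29 [0.24, 0.35], and was singled out after its value was seen. The ratio of *Hsd11b1* to *H6pd* FPKM was 2.78 in S1a/ETP and 4.53 in S1a/Ctrl. *Hsd11b2*, the enzyme of the reverse reaction in kidney, had 0 reads in S1a/ETP and 1 in S1a/Ctrl.

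Genes that glucocorticoids induce in liver did not lie on one side. Of 10 measured, 5 had an interval below 0 and 3 above it, 0 were past 2-fold in either direction, and the median was −0.08 (0.11 with the hepatocyte markers set to 0). *Zbtb16*, a zinc finger factor induced by glucocorticoids, was at 3.63 FPKM in S1a/ETP and 6.19 FPKM in S1a/Ctrl, a ratio of −0.76 [−0.96, −0.55]. *Dusp1*, a phosphatase that ends MAP kinase signals, was at 11.4 FPKM in S1a/ETP and 7.93 FPKM in S1a/Ctrl, a ratio of 0.52 [0.31, 0.73]. *Angptl4*, an inhibitor of lipoprotein lipase, had a ratio of −0.44 [−0.53, −0.36], and *Tat*, the tyrosine aminotransferase long used as the model of hormone induction, was at 617.6 FPKM in S1a/ETP and 685.5 FPKM in S1a/Ctrl, a ratio of −0.15 [−0.18, −0.13] that was 0.05 with the hepatocyte markers set to 0. Like *Hsd11b1*, all 10 of these genes stayed within 2-fold.

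*Hsd3b5* and *Akr1d1*, which also encode steroid reductases, are described in other paragraphs. Of 4 other genes whose enzymes act on androgens or estrogens, *Hsd17b2*, *Hsd17b6*, *Akr1c6* and *Srd5a1*, only *Hsd17b6* was lower by 2-fold or more. Its product oxidizes androstanediols and is a relative of the retinol dehydrogenases. It was at 28.0 FPKM (567 reads) in S1a/ETP and 66.4 FPKM (1779 reads) in S1a/Ctrl, so that the S1a/ETP level was 42.2% of the S1a/Ctrl level and the log2 ratio −1.24 [−1.38, −1.11]. It ranked at 137 from the lowest among the same 11006 genes, and it stayed at least 2-fold lower under all 7 other scalings and pseudocounts, between −1.27 and −1.05. Of its transcript windows, 12.1% also occur in *Rdh1*, a retinol dehydrogenase gene at 0.0875 FPKM in S1a/ETP and 0.317 FPKM in S1a/Ctrl.

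*Hsd17b6* lies at one end of a row of short-chain dehydrogenase genes on chromosome 10, within 241 kb. Of the 8 other genes there, 6 were measured, and 4 had an interval below 0 and 1 above it. Their ratios ran from −1.15 to 0.16 with a median of −0.33. *Rdh7*, the most abundant, was at 478 FPKM in S1a/ETP and 632 FPKM in S1a/Ctrl, a ratio of −0.40 [−0.44, −0.37], and *Sdr9c7* was at 7.75 FPKM in S1a/ETP and 12.2 FPKM in S1a/Ctrl, a ratio of −0.65 [−0.84, −0.46]. The interval of *Hsd17b6* lies below both. *Rdh1*, on 5 reads in S1a/ETP and 24 in S1a/Ctrl, was the 1 neighbor lower by 2-fold or more, at −1.15 [−1.83, −0.30], and its interval covers that of *Hsd17b6*. *Hsd17b6* gave 4.11% of the summed FPKM of the row in S1a/ETP and 7.69% in S1a/Ctrl.

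*Hsd17b2* and *Akr1c6* catalyze opposite steps at carbon 17, and both were lower in S1a/ETP by less than 2-fold. *Hsd17b2* oxidizes testosterone and estradiol to weaker ketones. It was at 44.9 FPKM (835 reads) in S1a/ETP and 61.1 FPKM (1505 reads) in S1a/Ctrl, a log2 ratio of −0.44 [−0.57, −0.32]. *Akr1c6*, the most abundant of the 10 genes, reduces androstenedione to testosterone and was at 384 FPKM (7793 reads) in S1a/ETP and 604.6 FPKM (16243 reads) in S1a/Ctrl, a log2 ratio of −0.65 [−0.69, −0.62]. The *Akr1c6* to *Hsd17b2* ratio of FPKM was 8.56 in S1a/ETP and 9.90 in S1a/Ctrl, and *Hsd17b2* to *Hsd17b6* was 1.60 in S1a/ETP and 0.920 in S1a/Ctrl. The order of *Hsd17b2* and *Hsd17b6* was thus the other way round in the pools.

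*Akr1c6* sits among other aldo-keto reductase genes on chromosome 13. Of 7 such neighbors 6 were measured, and 5 had an interval below 0 and 1 above it, with a median ratio of −0.37. *Akr1c19* was at 26.3 FPKM in S1a/ETP and 42.9 FPKM in S1a/Ctrl, a ratio of −0.70 [−0.86, −0.55]. *Akr1c18*, whose product inactivates progesterone, was the one on the other side, at 16.6 FPKM in S1a/ETP and 8.78 FPKM in S1a/Ctrl, a ratio of 0.91 [0.65, 1.17]. *Akr1c6* gave 60.2% of the summed FPKM of these 8 genes in S1a/ETP and 65.8% in S1a/Ctrl.

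*Srd5a1*, the 5-alpha reductase that turns testosterone into dihydrotestosterone and also clears glucocorticoids in liver, showed no difference detectable at this depth. It was at 18.2 FPKM (701 reads) in S1a/ETP and 17.9 FPKM (913 reads) in S1a/Ctrl, a log2 ratio of 0.02 [−0.12, 0.17] that was −0.01 with the median of genes over 1 FPKM set to 0. The gene model overlaps *Nsun2* on the opposite strand, which had a ratio of 0.05 [−0.07, 0.18], and the strand setting of the count is not given in the sources used here. It also shares 15.1% of its transcript windows with *Gm17108*, which had 0 reads in S1a/ETP and 2 in S1a/Ctrl.

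The bile acid enzymes *Hsd3b7* and *Akr1d1* had the smallest differences of the 9 genes that had an interval below 0. *Hsd3b7* works on 7-alpha-hydroxylated sterols and *Akr1d1*, the 5-beta reductase, on the product that follows, and *Akr1d1* also reduces steroid hormones. *Hsd3b7* was at 64.6 FPKM (4875 reads) in S1a/ETP and 72.8 FPKM (7273 reads) in S1a/Ctrl, a log2 ratio of −0.17 [−0.22, −0.12] that was 0.02 with the hepatocyte markers set to 0. *Akr1d1* was at 62.5 FPKM (2454 reads) in S1a/ETP and 68.9 FPKM (3578 reads) in S1a/Ctrl, a log2 ratio of −0.14 [−0.21, −0.06] that was 0.06 with the hepatocyte markers set to 0. The direction of both thus depended on that scaling. Their ratio to each other was 1.03 in S1a/ETP and 1.06 in S1a/Ctrl, which no scaling of a whole library can change. The *Hsd3b7* model of the table starts 15.0 kb before the RefSeq start and overlaps *Setd1a* on the same strand, which was at 1.77 FPKM in S1a/ETP and 1.88 FPKM in S1a/Ctrl. Of the transcript windows of *Hsd3b7*, 50.7% also occur in *Gm49388*, so its reads can be split or lost as well. Its length of 5188 bases sets its FPKM, so its level against other genes is uncertain.

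Other genes of bile acid synthesis lay mostly on the same side. Of 11 other measured genes of the pathway, 10 had an interval below 0 and 0 above it, 2 were lower by 2-fold or more, and the median was −0.38 (−0.18 with the hepatocyte markers set to 0). *Cyp7b1*, the oxysterol hydroxylase of the alternative pathway and a male-biased gene, was at 19.9 FPKM in S1a/ETP and 61.2 FPKM in S1a/Ctrl, a ratio of −1.62 [−1.75, −1.49]. *Cyp7a1*, the rate-limiting enzyme of the classical pathway, was at 11.0 FPKM in S1a/ETP and 25.97 FPKM in S1a/Ctrl, a ratio of −1.23 [−1.35, −1.10]. *Cyp8b1*, which makes cholic acid possible, was at 39.6 FPKM in S1a/ETP and 73.3 FPKM in S1a/Ctrl, a ratio of −0.89 [−0.99, −0.78]. *Scp2*, a sterol carrier, was the most abundant at 1496 FPKM in S1a/ETP and 1620 FPKM in S1a/Ctrl, a ratio of −0.11 [−0.13, −0.10] that was 0.08 with the hepatocyte markers set to 0. The intervals of *Cyp7b1*, *Cyp7a1* and *Cyp8b1* all lie below those of *Hsd3b7* and *Akr1d1*.

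Other hydroxysteroid dehydrogenases were split. The list also holds *H6pd*, the cofactor gene described above, whose interval lay above 0. Of 13 measured, 5 had an interval below 0 and 5 above it, and the median was −0.06, which turned to 0.01 in TPM and 0.14 with the hepatocyte markers set to 0. *Hsd17b13*, a lipid droplet protein and the most abundant, was at 311 FPKM in S1a/ETP and 324 FPKM in S1a/Ctrl, a ratio of −0.06 [−0.10, −0.02] that turned to the same 0.01 and 0.14. *Hsd17b11*, also of lipid droplets, had a ratio of −0.51 [−0.58, −0.44], and *Hsd17b10*, a mitochondrial enzyme, had a ratio of −0.35 [−0.44, −0.26]. *Nsdhl*, which works in cholesterol synthesis, was at 82.1 FPKM in S1a/ETP and 50.7 FPKM in S1a/Ctrl, a ratio of 0.69 [0.61, 0.78]. The only one past 2-fold was *Hsd17b14*, with 0 reads in S1a/ETP and 7 in S1a/Ctrl, a ratio of −1.85 [−1.85, −0.07]. With S1a/ETP set to 3 reads it was 1.76-fold lower, and so not past 2-fold. Among 15 measured reductases and retinol dehydrogenase relatives, which include the *Akr1c* and *Rdh* neighbors above, 9 had an interval below 0 and 4 above it, with a median of −0.25 (−0.06 with the hepatocyte markers set to 0).

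Genes of hormone synthesis in adrenal and gonad were few and had ratios above 0. Of 9 listed, 3 were measured, and all 3 had an interval above 0. *Star*, which carries cholesterol into mitochondria, was at 2.89 FPKM (117 reads) in S1a/ETP and 0.727 FPKM (39 reads) in S1a/Ctrl, a ratio of 1.85 [1.37, 2.35]. *Cyp21a1*, the steroid 21-hydroxylase, was at 5.18 FPKM in S1a/ETP and 3.26 FPKM in S1a/Ctrl, a ratio of 0.65 [0.32, 0.99]. *Cyp17a1*, a hydroxylase and lyase, was at 127.6 FPKM in S1a/ETP and 88.0 FPKM in S1a/Ctrl, a ratio of 0.54 [0.46, 0.61]. The defining adrenal genes were near 0, with *Cyp11a1* at 1 and 2 reads in S1a/ETP and S1a/Ctrl, *Cyp11b1* at 0 and 1, and *Nr5a1* and *Mc2r* at 0 in both.

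Genes that conjugate steroids or bind them were mostly lower in S1a/ETP. Of 13 measured sulfo- and glucuronosyltransferases, 8 had an interval below 0 and 2 above it, with a median of −0.27 (−0.08 with the hepatocyte markers set to 0). *Sult2a8*, a bile acid sulfotransferase, was at 78.9 FPKM in S1a/ETP and 177.7 FPKM in S1a/Ctrl, a ratio of −1.17 [−1.24, −1.10]. *Ugt2b5*, a glucuronosyltransferase, was at 269 FPKM in S1a/ETP and 313 FPKM in S1a/Ctrl, a ratio of −0.22 [−0.26, −0.17]. *Sult1e1*, the estrogen sulfotransferase, had 38 reads in S1a/ETP and 28 in S1a/Ctrl, a ratio of 0.79 [0.10, 1.495], and *Ugt2b37* had 28 and 54, a ratio of −0.50 [−1.15, 0.13]. Of 8 measured receptors and binding globulins, 6 had an interval below 0 and 0 above it, with a median of −0.32 (−0.12 with the hepatocyte markers set to 0). *Nr1i3*, the receptor CAR, was at 19.99 FPKM in S1a/ETP and 43.4 FPKM in S1a/Ctrl, a ratio of −1.11 [−1.23, −1.002]. *Serpina6*, the plasma carrier of corticosteroids, was at 213.8 FPKM in S1a/ETP and 319 FPKM in S1a/Ctrl, a ratio of −0.58 [−0.63, −0.53]. The estrogen receptor gene *Esr1* had a ratio of −0.57 [−0.81, −0.33].

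**Figure D4:**
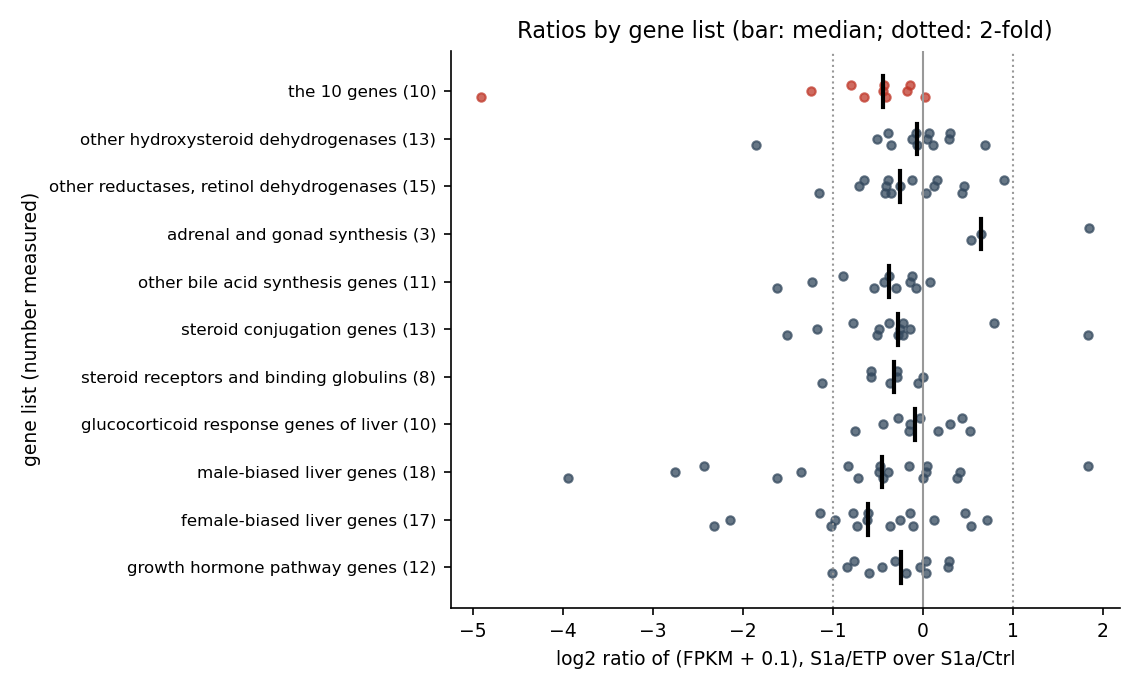
Log2 ratio, S1a/ETP over S1a/Ctrl, of every measured gene of each list, with the median as a black bar, 2-fold as dotted lines and the number of measured genes in parentheses. The 10 genes have a median of −0.44, the male-biased genes −0.46, the female-biased genes −0.61 and the adrenal and gonad genes 0.65.

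Because *Hsd3b5* is male-biased, genes of both sex-biased programs of liver were set beside it. Of 18 male-biased genes, 12 had an interval below 0 and 3 above it, 5 were lower and 1 higher by 2-fold or more, and the median was −0.46 (−0.26 with the hepatocyte markers set to 0). The list shares *Cyp7b1* and *Ugt2b38* with the lists above. *Mup7* and *Mup21*, which encode urinary pheromone carriers, had ratios of −3.94 [−4.37, −3.54] and −2.75 [−2.86, −2.64], and *Susd4*, a complement regulator, had 21 reads in S1a/ETP and 175 in S1a/Ctrl, a ratio of −2.43 [−3.02, −1.86]. *Gstp1*, a glutathione transferase and the most abundant, was at 654 FPKM in S1a/ETP and 888 FPKM in S1a/Ctrl, a ratio of −0.44 [−0.48, −0.40]. Copies of *Mup* and *Gstp* genes are near-identical, so their single values are uncertain. As reported, the ratio of *Hsd3b5* was the lowest beside these 18, but its interval overlaps that of *Mup7*. With a pseudocount of 1 FPKM *Mup7* was the lower of the pair, at −3.63 against −3.48 for *Hsd3b5*.

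The female-biased genes were not the mirror of the male-biased ones. Of 17 measured, 8 had an interval below 0 and 3 above it, 4 were lower and 0 higher by 2-fold or more, and the median was −0.61 (−0.41 with the hepatocyte markers set to 0 and −0.36 with a pseudocount of 1 FPKM). It shares *Cyp17a1* and *Sult2a1* with the lists above. *Hao2*, a hydroxyacid oxidase gene just beyond the *Hsd3b* cluster on chromosome 3, had 8 reads in S1a/ETP and 68 in S1a/Ctrl, a ratio of −2.32 [−3.16, −1.46]. *Cyp2b13*, a cytochrome P450, was at 3.04 FPKM in S1a/ETP and 13.7 FPKM in S1a/Ctrl, a ratio of −2.14 [−2.48, −1.81], and the transporter gene *Slc22a26* had a ratio of −1.14 [−1.68, −0.62]. *Cyp2a4*, a steroid hydroxylase and the most abundant, was at 767 FPKM in S1a/ETP and 987 FPKM in S1a/Ctrl, a ratio of −0.36 [−0.39, −0.34]. Y-linked genes were present in both pools, with ratios from −0.46 to −0.07, and *Xist* had 3 reads in S1a/ETP and 12 in S1a/Ctrl.

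Of 12 growth hormone pathway genes, 6 had an interval below 0 and 2 above it, with a median of −0.24 (−0.05 with the hepatocyte markers set to 0). *Onecut1*, a liver factor induced by the hormone, was at 1.44 FPKM in S1a/ETP and 2.99 FPKM in S1a/Ctrl, a ratio of −1.004 [−1.36, −0.65]. *Socs2*, a feedback inhibitor, had a ratio of −0.84 [−1.17, −0.52], and *Igfals*, which stabilizes circulating IGF1, had a ratio of −0.76 [−0.91, −0.61]. The receptor gene *Ghr* was at 97.3 FPKM in S1a/ETP and 120 FPKM in S1a/Ctrl, a ratio of −0.30 [−0.35, −0.26]. The interval of *Hsd3b5* lies below those of all 12 genes.

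Both pools are liver by their markers. *Alb* was at 31035 FPKM in S1a/ETP and 31534 FPKM in S1a/Ctrl. The 13 hepatocyte markers had a median ratio of −0.20, and 9 had an interval below 0 and 4 above it. The lowest were *Apoa1* at −0.47, *Apoa2* at −0.50 and *Serpina1a* at −1.08, and the highest was *Fgb* at 0.14. All 10 neutrophil markers were higher by 2-fold or more in S1a/ETP, where the list summed to 370 FPKM against 5.73 FPKM in S1a/Ctrl, and 5 of them, *Ngp* and *Camp* included, had 0 reads in S1a/Ctrl. The 10 macrophage markers were all higher, at a sum of 252 FPKM in S1a/ETP and 192 FPKM in S1a/Ctrl, with *Cd68* at 0.77, *Vsig4* at 0.57, *Adgre1* at 0.53 and *C1qa* at 0.41. Of 6 biliary markers, 1 had an interval below 0 and 2 above it, with *Epcam* at −0.65, *Sox9* at 0.56 and *Spp1* at 0.57. In the muscle list, *Tnnt3*, *Acta1* and *Tnni2* had 0, 0 and 1 reads in S1a/ETP and 475, 493 and 309 in S1a/Ctrl. The part of these cells in the ratios of the 10 genes was not tested. The 10 genes together came to 886 FPKM in S1a/ETP and 1287 FPKM in S1a/Ctrl.

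**Figure D5:**
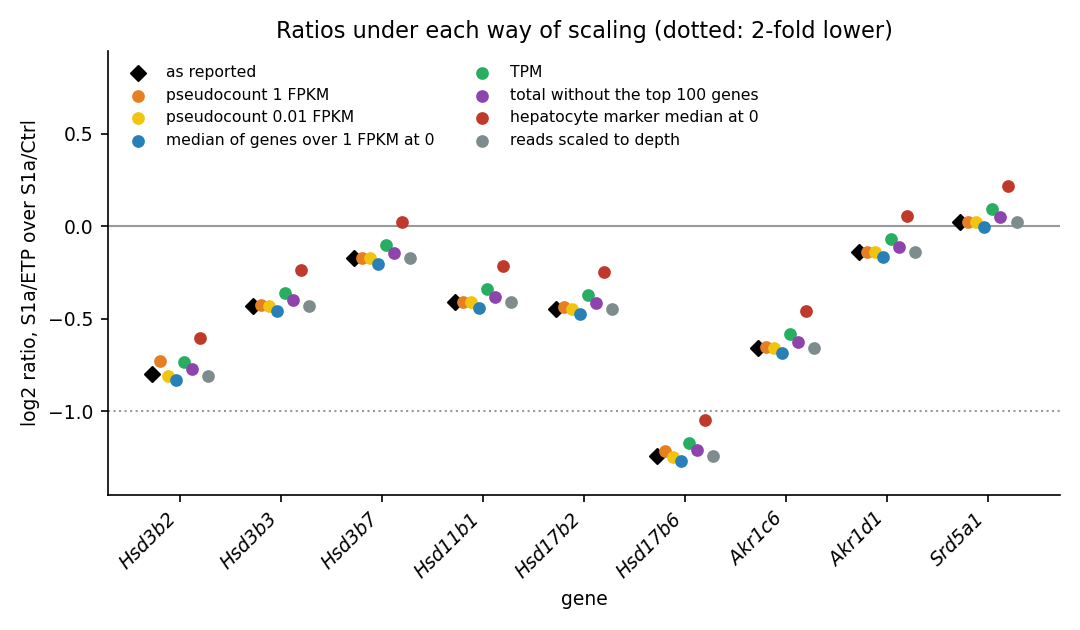
Log2 ratio, S1a/ETP over S1a/Ctrl, of 9 of the genes as reported (diamonds) and under 7 other pseudocounts and scalings (circles), with *Hsd3b5* left out because it lies off the axis. *Hsd17b6* lies under the dotted 2-fold line each time, *Hsd3b7* and *Akr1d1* cross 0 with the hepatocyte markers set to 0, and *Srd5a1* crosses 0 with the median of genes over 1 FPKM set to 0.

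Across the 7 other pseudocounts and scalings, *Hsd3b2*, *Hsd3b3*, *Hsd3b5*, *Hsd11b1*, *Hsd17b2*, *Hsd17b6* and *Akr1c6* stayed below 0 each time. The highest value of each came with the hepatocyte markers set to 0, at −0.60, −0.23, −0.21, −0.25, −1.05 and −0.46 for *Hsd3b2*, *Hsd3b3*, *Hsd11b1*, *Hsd17b2*, *Hsd17b6* and *Akr1c6* in that order, while *Hsd3b5* was highest, at −3.48, with a pseudocount of 1 FPKM.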

How the data were processed

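Liver RNA of S1a/ETP and S1a/Ctrl mice was sequenced by Novogene as 1 library per group, each the RNA of 3 mice, and the labels placed each library in its group. The authors deposited 1 table of FPKM values with gene IDs, symbols, coordinates and lengths. The submitters' notes on processing list the mm10 build, edgeR 3.16.5, DESeq2, StringTie 1.3.3b, HTSeq 0.6.1 and STAR, with no role for any of them. For the annotation release and strand setting, nothing is given in the sources used here. A value times gene length and depth gave whole reads, within 0.01, for 100% of values. No count model was fitted to these reads, because 1 library per group leaves no estimate of spread, so the number of genes such a model calls cannot be given. The study's 2-fold size was kept and its p-value was not.

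Ratios used a pseudocount of 0.1 FPKM and were kept for genes whose mean reached 0.1 FPKM. They understate the change of low genes. Intervals are 95% exact binomial ones. Like the floor of 3 reads set for genes without reads, they cover only the error of counting. The 10 genes and the 16 lists of 197 genes were chosen with earlier results of these data known. Named genes are the 10, all *Hsd3b* genes, up to 3 genes of each list with the largest absolute ratio at a mean of 1 FPKM or more and its most abundant gene, and the 3 nearest to *Hsd3b5* in ratio. Others named in the text were chosen after their values were seen. Among listed genes, 4 stood under another symbol, 5 had no match, and 34490 IDs of the table were found in the reference's gene names. Start sites, promoters and motifs came from RefSeq (GRCm38.p6) and transcript windows from GENCODE M21. Scripts were tested on simulated data. Alternatives were pseudocounts of 1 and 0.01 FPKM, TPM, other scalings, reads scaled to depth, filters and a 1.5-fold size. Python 3.11.15, numpy 2.4.6, pandas 2.3.3, scipy 1.17.1 and biopython 1.88 were used.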

Additional observations from a re-analysis of the deposited data

How the results depend on the processing

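The count of genes at least 2-fold lower was 2 under all 7 other pseudocounts and scalings, with no filter and with one at 1 FPKM, and 4 at a 1.5-fold size, where *Hsd3b2* and *Akr1c6* joined *Hsd3b5* and *Hsd17b6*. The count higher was 0 under each of these. Setting the hepatocyte marker median to 0 moved the median of the 10 genes to −0.24 and the *Hsd3b* family to −0.25, against −0.44 and −0.45 as reported. The family was −0.38 in TPM and −0.33 from summed reads scaled to depth, where long *Hsd3b7* weighs more. For the chromosome 3 cluster alone, an alternative added after the data were seen, it was −0.69. Both genes past 2-fold kept their direction each time. Before any pseudocount or filter, TPM, the total without the 100 most abundant genes and the median of genes over 1 FPKM shift log2 ratios by 0.07, 0.03 and −0.03, and under TPM and that total genes near 0 moved otherwise once the pseudocount was added. Of 434 values of 62 other named genes under these alternatives, 106 left their counting interval. In 8 of them the sign changed, for 5 genes that were all within 2-fold. With the hepatocyte markers set to 0, *Alb*, *Eif2s3y*, *Hsd17b13*, *Scp2* and *Tat* were at 0.17, 0.04, 0.14, 0.08 and 0.05. In TPM *Alb* and *Hsd17b13* were at 0.05 and 0.01, and *Alb* was at 0.01 without the 100 most abundant genes. Leaving out a replicate was not possible with 1 library per group. No paired analysis was possible because each group has 1 library and no replicate number pairs them. Depth limits *Hsd3b5* most, with 9 reads in S1a/ETP.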
